A study of Mus musculus with 11 samples.

Results

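Malat1, Neat1, Kcnq1ot1, Rpph1, Rmrp, Rn7sk and Terc are noncoding RNAs of the mouse that total RNA libraries can hold in large amounts. Their rows in a table of raw counts were found by matching each Ensembl ID to a symbol in GENCODE release M21. Of the 7 symbols, 5 had an ID among the 56748 of the table. For Terc and Rn7sk no ID was matched, so they were not analysed here. Rmrp had 2 IDs, a ribozyme of 271 bases and an overlapping long noncoding RNA of 281 bases. Both had the same counts in each of the 11 libraries (90999 reads in all), so the ribozyme ID was used for Rmrp. Library totals and class shares sum over all IDs. There the reads of Rmrp enter under both IDs, as small noncoding and as long noncoding RNA.

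The libraries are of CD4 T cells from the livers of mice given carbon tetrachloride (CCl4), a hepatocyte toxin that leads to fibrosis, for 5 weeks. Of these, 6 are from mice with the genotype ATG5TLymph-/-, in which T lymphocytes are autophagy-deficient (Atg5-deficient), and 5 are from ATG5fl/fl mice, which carry the undeleted floxed gene (wild-type). All mice of both groups had received CCl4, and a group without it was not analysed here. The sources used here give neither the Cre driver nor the age of the mice, and they do not say that each library is 1 mouse. P-values therefore describe the spread among these libraries alone. The series describes cells sorted by flow cytometry, whereas the protocol of the labels describes RNA from sections of fixed, paraffin-embedded blocks, read with a stranded total RNA kit.

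Malat1 and Neat1 are neighbouring long noncoding RNAs that stay in the nucleus. Malat1 gathers in nuclear speckles, which store splicing factors, and Neat1 is the scaffold of paraspeckles. Kcnq1ot1 is transcribed from the paternal chromosome, antisense to Kcnq1, and silences imprinted neighbours in cis. Rpph1 is the RNA subunit of RNase P, which trims the leader of precursor tRNAs, and Rmrp is that of the related RNase MRP, which cuts precursor ribosomal RNA. Both are made by RNA polymerase III and lack a poly(A) tail, so that a total RNA kit can read them while a poly(A)-selected library largely misses them.

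Libraries held 30699408 to 47564440 counts. Atg5 itself was at 15.2 to 22.5 CPM (counts relative to library size, scaled by TMM factors) in the Atg5-deficient libraries and at 13.4 to 21.1 CPM in the wild-type libraries. A count over the whole gene does not check a deletion of part of it, and the sources used here do not name the deleted exons. Summed markers of CD4 T cells (11 of 11 genes in the table) ran from 3102 to 4591 CPM of total counts in Atg5-deficient and from 3118 to 3459 CPM in wild-type libraries, and 5 of 6 Atg5-deficient libraries were above every wild-type one. Those of hepatocytes (10 of 10) ran from 71.7 to 1256 CPM in Atg5-deficient and from 52.3 to 715 CPM in wild-type libraries. Those of CD8 T and NK cells (5 of 5) were low, at 5.38 to 10.1 CPM against 8.77 to 14.3 CPM, with 4 of 6 Atg5-deficient libraries below every wild-type one. B cell markers were at 142 to 272 CPM against 160 to 234 CPM, and endothelial markers at 120 to 198 CPM against 123 to 223 CPM. Macrophage, fibroblast, neutrophil and erythroid markers were at 20.5 CPM or less in every library. The part of these marker differences in the values of the noncoding RNAs was not tested. Wild-type replicates 2 and 3 stood apart from the other 9 libraries. Of their counts 9.08% and 10.7% fell on IDs with no match in GENCODE M21, against 3.47% to 4.98% elsewhere, so results that rest on them are also given without them. In bulk libraries, fewer cells of a type and less RNA per cell cannot be told apart.

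Together the 5 RNAs took 0.909% to 1.76% of the counts of an Atg5-deficient library and 1.05% to 2.11% of a wild-type one. Malat1 alone was 78.9% to 87.3% of that sum. It ranked between 4 and 7 among all IDs in each library, whereas Rpph1 ranked between 17 and 99. Per kilobase of exon the order was another. Rpph1 had 2347 to 7308 CPM of total counts per kilobase, Malat1 1059 to 2570, Rmrp 419 to 1387, Neat1 11.7 to 24.5 and Kcnq1ot1 0.513 to 2.67, with nearly all reads of Rpph1 also counted for Ccnb1ip1. On that length-adjusted scale the ranges of Malat1 and Rpph1, and of Malat1 and Rmrp, overlapped over all libraries, while those of Rmrp, Neat1 and Kcnq1ot1 did not overlap each other.

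**Figure D1:**
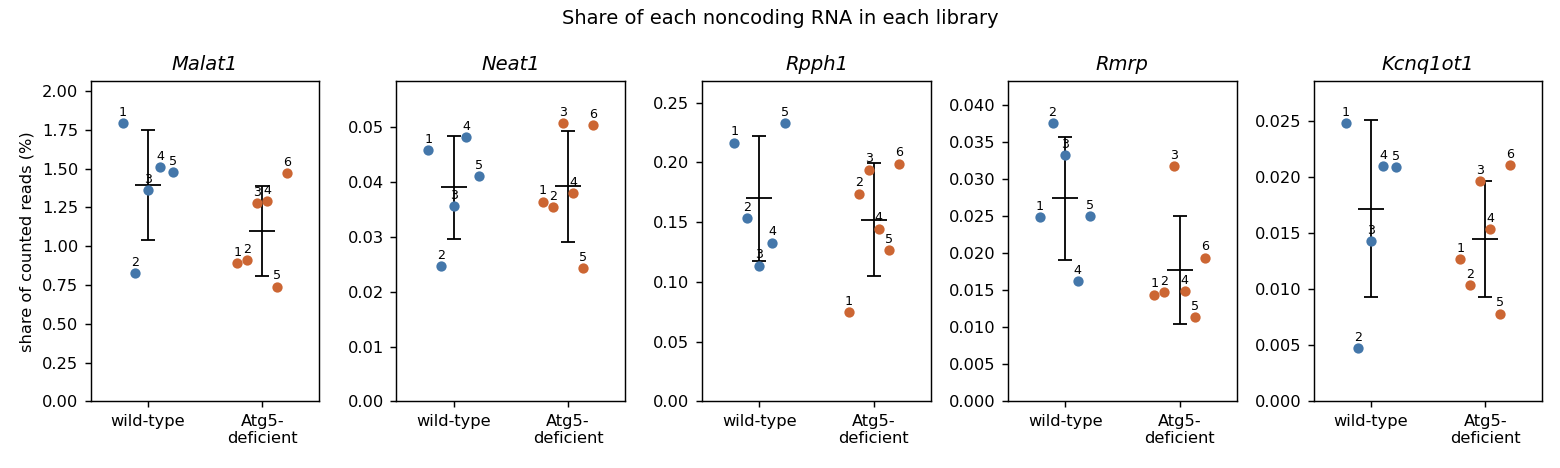
Share of counted reads (%) of each noncoding RNA in each library, by genotype, with each vertical axis starting at 0. Points are libraries with their replicate number, and black marks are the mean ± SD (n = 5 wild-type, 6 Atg5-deficient). The genotypes overlapped for each of the 5 RNAs, and Rmrp showed 4 of 6 Atg5-deficient libraries below every wild-type one.

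Malat1 lies at chr19:5795690-5802672 on the minus strand (GRCm38), with 6983 exon bases. In wild-type replicates 1 to 5 it took 1.79%, 0.825%, 1.36%, 1.51% and 1.48% of all counts. In the Atg5-deficient libraries its share had a lowest value of 0.739%, a median of 1.09% and a highest of 1.47%. Wild-type replicate 2 was the low library of its group and stood among the low Atg5-deficient ones. The groups overlapped through wild-type replicates 2 and 3 only. Wild-type replicates 1, 4 and 5 were above every Atg5-deficient library. The mean share was 1.10% ± 0.287 (SD, n = 6) in Atg5-deficient and 1.39% ± 0.355 (SD, n = 5) in wild-type libraries. The log2 fold change was -0.37 (SE 0.18, 95% interval -0.75 to 0.01), with an adjusted p of 0.232 by edgeR's quasi-likelihood test. The difference passed the threshold of 0.05 only with limma-voom and sample quality weights (-0.51, adjusted p = 0.0326). Without wild-type replicates 2 and 3 it was -0.50 (adjusted p = 0.131 by edgeR), and among the 8 libraries whose title numbers follow each other (5 Atg5-deficient, 3 wild-type) it was -0.33 (adjusted p = 0.488).

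Neat1 lies beside Malat1, at chr19:5824708-5845478 on the minus strand, and has 4 annotated transcripts of 711 to 20771 bases, which a count per gene cannot separate. Its share of all counts was 0.0458%, 0.0246%, 0.0356%, 0.0482% and 0.0410% in wild-type replicates 1 to 5. In the Atg5-deficient libraries the lowest was 0.0243%, the median 0.0372% and the highest 0.0508%. Low libraries were found in both groups, and 2 Atg5-deficient libraries exceeded every wild-type one. The means were 0.0392% ± 0.0101 (SD, n = 6) in Atg5-deficient and 0.0391% ± 0.00939 (SD, n = 5) in wild-type libraries. The log2 fold change of -0.02 (SE 0.17, 95% interval -0.39 to 0.35) had an adjusted p of 0.968 by edgeR's test, and its sign turned when replicates were left out.

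Read against each other within a library, which needs no scaling, Malat1 counts were 31.3 to 39.2 times those of Neat1 in wild-type libraries. In the Atg5-deficient libraries this ratio was 24.5 to 34.1. Of the 6 Atg5-deficient libraries, 5 were below every wild-type one and only replicate 4 was within the wild-type range. The mean ratio was 28.2 ± 3.73 (SD, n = 6) against 35.6 ± 3.25 (SD, n = 5). The lowest wild-type ratio was in replicate 4, so leaving out wild-type replicates 2 and 3 changes neither that bound nor the count. The ratio was noticed in these data and was not tested. Ratios of Rpph1 to Rmrp and of Malat1 to Kcnq1ot1 were also computed. In the former, 4 of 6 Atg5-deficient libraries were above every wild-type one, and in the latter 3 of 6 were below. How often ratios of other gene pairs part the libraries this well was not measured.

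Kcnq1ot1 lies at chr7:143203458-143296549 on the minus strand and is annotated as 1 unspliced transcript of 93092 bases within Kcnq1. Its share was 0.0248%, 0.00478%, 0.0143%, 0.0210% and 0.0209% in wild-type replicates 1 to 5. Among the Atg5-deficient libraries the lowest share was 0.00782%, the median 0.0141% and the highest 0.0211%. Wild-type replicate 2 was the lowest of all 11 libraries and wild-type replicate 1 the highest, so the Atg5-deficient range lay inside the wild-type one. That spread of 5.20 times between the extreme libraries was the widest of the 5 RNAs. The mean share was 0.0145% ± 0.00519 (SD, n = 6) in Atg5-deficient and 0.0172% ± 0.00790 (SD, n = 5) in wild-type libraries. The log2 fold change was -0.25 (SE 0.36, 95% interval -1.05 to 0.54, adjusted p = 0.724 by edgeR). It was -0.58 without wild-type replicates 2 and 3 (adjusted p = 0.220). Kcnq1, the potassium channel gene on the opposite strand, shares 121 exon bases with it and had 16 counts over all libraries, against 64092 for Kcnq1ot1.

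Rpph1 lies at chr14:50807449-50807767 on the minus strand. Of its 319 bases, 233 (73.0%) are also exon bases of Ccnb1ip1, a coding gene on the same strand for a protein known from meiotic crossing over, in which they are untranslated. The ends of Rpph1 are shown because they hold the bases that the genes do not share. Capitals mark bases that are in both genes, and lower case marks bases of Rpph1 alone. The sequences are those of the GENCODE M21 transcript (GRCm38, minus strand, 5′ to 3′), and the shared stretch between them is left out.
Rpph1 bases 1 to 65 (chr14:50807703-50807767): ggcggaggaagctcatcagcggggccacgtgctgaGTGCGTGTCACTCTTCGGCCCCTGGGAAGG
Rpph1 bases 239 to 319 (chr14:50807449-50807529): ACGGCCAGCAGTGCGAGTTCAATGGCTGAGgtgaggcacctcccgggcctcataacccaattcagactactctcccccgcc

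Reads on this locus were counted almost entirely for both genes. Ccnb1ip1 had 650989 counts over all libraries and Rpph1 653184. Per library the count of Ccnb1ip1 was 99.4% to 99.8% of that of Rpph1, a difference of 122 to 356 reads. The 233 shared bases are 12.4% of the exon bases of Ccnb1ip1, and the rest of that gene was not counted apart. How many of these reads come from Ccnb1ip1 transcripts cannot be told from the table, and values given for Rpph1 hold for both genes together.

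The share of Rpph1 was 0.217%, 0.154%, 0.114%, 0.133% and 0.233% in wild-type replicates 1 to 5. In the Atg5-deficient libraries it had a lowest value of 0.0749%, a median of 0.159% and a highest of 0.199%. Atg5-deficient replicate 1 was the low library, and wild-type replicates 1 and 5 were above all Atg5-deficient ones. The means were 0.152% ± 0.0471 (SD, n = 6) in Atg5-deficient and 0.170% ± 0.0524 (SD, n = 5) in wild-type libraries. The log2 fold change of -0.19 (SE 0.23, 95% interval -0.68 to 0.30) had an adjusted p of 0.662 by edgeR's test, and without Atg5-deficient replicate 1 it was -0.06. Parp2, a DNA repair gene that starts 73 bases away on the opposite strand, had 8.71% of the count of Rpph1. Its log2 fold change was -0.12 (adjusted p = 0.807 by edgeR).

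Rmrp lies at chr4:43492788-43493058 on the minus strand and shares 124 of its 271 bases with exons of Ccdc107, a coding gene on the opposite strand. The shared bases are neither coding nor annotated as untranslated, and so belong to a noncoding transcript of Ccdc107. As for Rpph1, the ends of the ribozyme are shown with the bases shared by both genes in capitals, since only the lower-case bases are of Rmrp alone (GENCODE M21 transcript, GRCm38, minus strand, 5′ to 3′).
Rmrp bases 1 to 65 (chr4:43492994-43493058): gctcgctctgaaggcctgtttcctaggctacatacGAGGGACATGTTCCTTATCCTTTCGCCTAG
Rmrp bases 130 to 271 (chr4:43492788-43492929): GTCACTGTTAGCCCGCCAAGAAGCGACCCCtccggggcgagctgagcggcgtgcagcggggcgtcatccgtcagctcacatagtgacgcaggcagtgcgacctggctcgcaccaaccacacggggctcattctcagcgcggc

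Ccdc107 had 10598 counts, 11.6% of those of Rmrp, and 9.11% to 15.6% in single libraries. Its deviations from the genotype mean followed those of Rmrp (Pearson's r = 0.94 on log2 CPM over 11 libraries). The sources used here do not give the strand setting of the authors' counting. How many counts of Ccdc107 come from reads of Rmrp was not tested. The longer opposite-strand overlap of Malat1 with Gm37376 covers all 453 bases of that predicted gene and 6.49% of the exon bases of Malat1. There the partner had 0.0273% of the count of Malat1.

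**Figure D2:**
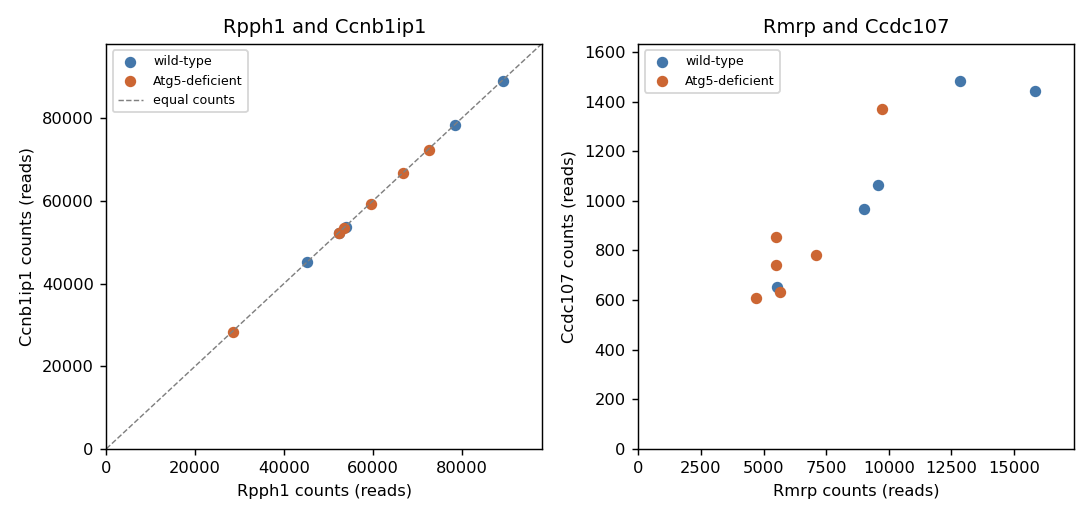
Raw counts (reads) of Rpph1 against Ccnb1ip1 (left, same strand) and of Rmrp against Ccdc107 (right, opposite strands), with 1 point per library and linear axes from 0. On the left the points lie along the dashed line of equal counts, with Ccnb1ip1 at 99.4% to 99.8% of Rpph1, and on the right Ccdc107 is at 9.11% to 15.6% of Rmrp.

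Rmrp had the lowest log2 fold change of the 5 RNAs. Its share was 0.0249%, 0.0376%, 0.0333%, 0.0163% and 0.0250% in wild-type replicates 1 to 5. In the Atg5-deficient libraries the lowest was 0.0114%, the median 0.0148% and the highest 0.0317%. Of the 6 Atg5-deficient libraries, 4 were below every wild-type one, while Atg5-deficient replicate 3 was among the high wild-type libraries, so the groups overlapped. The mean was 0.0178% ± 0.00732 (SD, n = 6) in Atg5-deficient and 0.0274% ± 0.00829 (SD, n = 5) in wild-type libraries. The log2 fold change was -0.69 (SE 0.28, 95% interval -1.31 to -0.06), with an unadjusted p of 0.0336 and an adjusted p of 0.172 by edgeR's test. Single libraries moved this result. Without Atg5-deficient replicate 3 it passed, at -0.92 (adjusted p = 0.0327), and without wild-type replicates 2 and 3 it was -0.27 (adjusted p = 0.615). Those 2 wild-type libraries were both the highest in Rmrp and the highest in counts on unmatched IDs, and the part of that in the result was not tested.

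In the fit across all genes, 0 of the 5 RNAs passed the threshold, against 1231 of 17987 tested genes (6.84%), of which 797 (4.43%) were higher and 434 (2.41%) lower in Atg5-deficient libraries. At an unadjusted p under 0.05 by edgeR's test, 1 of the 5 was counted, Rmrp, against 4205 of all tested genes (23.4%). DESeq2 called 0 of the 5 at an adjusted p under 0.05, against 2370 of 18567 genes. Its unadjusted p was 0.0402 for Rmrp and 0.0431 for Malat1. All 5 fold changes were below 0, with a median of -0.25 against -0.00273 over all tested genes, although Neat1 changed sign under total-count scaling and Rpph1 among the 8 libraries with consecutive title numbers. The shares of all 5 overlapped between genotypes, whereas the groups did not overlap for 4.86% of tested genes. In simulated counts for this comparison the test recovered 19.4% of genes changed 1.5-fold and 47.8% of those changed 2-fold. These genes were drawn at random from all tested genes, and the simulation gave 98 calls, against 1231 in the data. How often such a change in a member would be missed was therefore not measured.

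**Figure D3:**
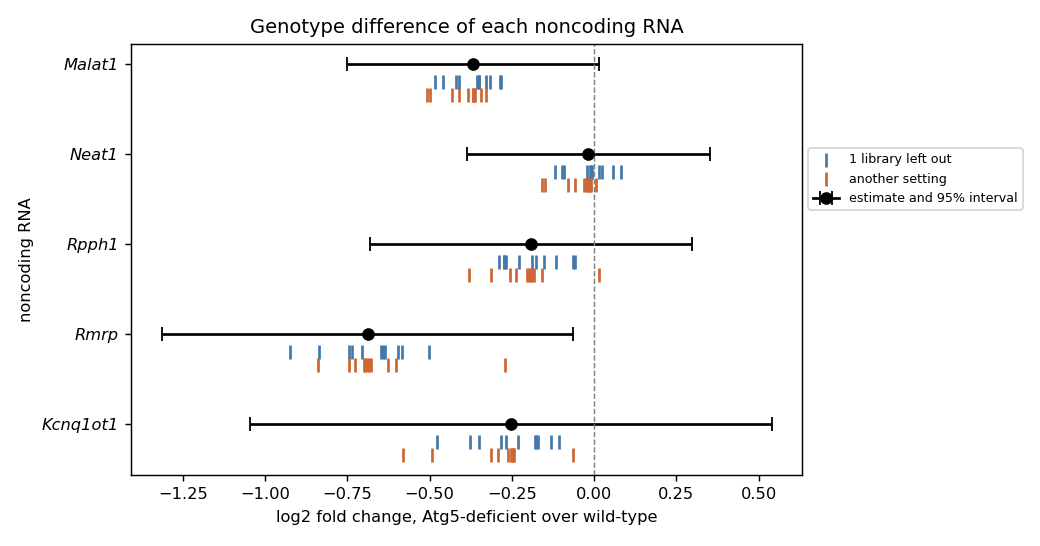
Log2 fold change of each noncoding RNA, Atg5-deficient over wild-type. Black points are edgeR's estimates with 95% intervals, blue ticks are fits with 1 library left out and orange ticks are fits with another scaling, filter, test or set of libraries. The interval of Rmrp (-1.31 to -0.06) lies below 0, and the intervals of the other 4 include 0.

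Across libraries the 3 long noncoding RNAs deviated together. Deviations of log2 CPM from the genotype mean were compared over the 11 libraries, for 10 pairs. Malat1 and Kcnq1ot1 had Pearson's r = 0.93 and Spearman's rho = 0.92, Neat1 and Kcnq1ot1 0.90 and 0.89, and Malat1 and Neat1 0.88 and 0.75. Without the 2 libraries farthest from the median, Atg5-deficient replicate 5 and wild-type replicate 2, r was 0.83, 0.82 and 0.66 in that order. Both of these libraries were low in all 3 RNAs, and Atg5-deficient replicate 6 was high in all 3. For Rpph1 and Rmrp r was 0.26 (rho 0.24), and for Malat1 and Rmrp it was 0.04 (rho 0.07). These low values moved with the libraries used. Without wild-type replicates 2 and 3, r was 0.47 for Rpph1 and Rmrp, and that of Rmrp with Malat1, Neat1 and Kcnq1ot1 was 0.42, 0.49 and 0.37, in place of 0.04, 0.10 and -0.14. Without the 2 libraries farthest from the median in Rpph1, Atg5-deficient replicate 1 and wild-type replicate 3, r was 0.56 for Rpph1 and Rmrp. Without the 2 farthest in Malat1, Atg5-deficient replicate 5 and wild-type replicate 2, r was 0.26 for Malat1 and Rmrp. The 3 long noncoding pairs were at 0.92, 0.91 and 0.84 without wild-type replicates 2 and 3. These values describe 11 libraries whose RNAs share depth, scaling and RNA quality. Many other genes were as close: among 8222 genes with a mean of at least 10 CPM, Kcnq1ot1 ranked 28 in likeness to Malat1, and Neat1 ranked 91.

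**Figure D4:**
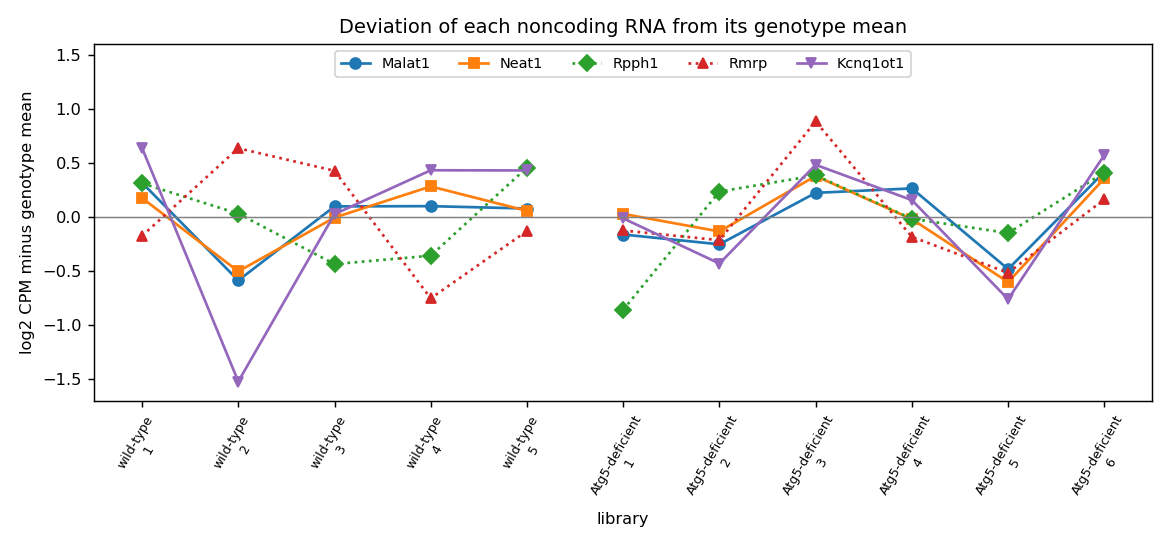
Log2 CPM of each noncoding RNA minus its genotype mean, by library, with solid lines for the long noncoding RNAs and dotted lines for Rpph1 and Rmrp. Lines only join the points of 1 RNA, since libraries have no order. Malat1, Neat1 and Kcnq1ot1 were all low in wild-type replicate 2 and Atg5-deficient replicate 5, where the deviation of Rmrp was 0.64 and -0.52.

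The genes closest in pattern were named by the highest r over 7714 named genes. For Malat1 these were Ago3 (r = 0.98), an Argonaute protein, Mdm4 (0.96), an inhibitor of p53, and Tspoap1 (0.95). For Neat1 they were Iqcn (0.98), Scai (0.97) and Col4a3bp (0.95), a ceramide carrier. For Kcnq1ot1 they were Zbtb20, Vps13b and Son (each 0.98), of which Son is a scaffold protein of nuclear speckles. For Rpph1 the closest was Ccnb1ip1 (1.0), with which it shares its reads, then Morc2a (0.92) and AW549877 (0.91). For Rmrp it was Ccdc107 (0.94), which overlaps it, then Dctn2 (0.94) and Scarna2 (0.91), a guide RNA of Cajal bodies. Frmd8, which lies next to Neat1 on the chromosome, ran the other way, with r = -0.81 to Neat1 and -0.71 to Malat1.

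Promoters of the members were read for the CCAAT box, a common proximal promoter element. RefSeq windows (GRCm38.p6) from 250 bases before to 50 after the start were held for Kcnq1ot1 and Malat1, and not for Neat1, Rpph1 and Rmrp. Capitals mark CCAAT, both windows are of the minus strand and read 5′ to 3′, and ATTGG, its reverse complement, was searched as well.
Kcnq1ot1 (chr7:143296498-143296797): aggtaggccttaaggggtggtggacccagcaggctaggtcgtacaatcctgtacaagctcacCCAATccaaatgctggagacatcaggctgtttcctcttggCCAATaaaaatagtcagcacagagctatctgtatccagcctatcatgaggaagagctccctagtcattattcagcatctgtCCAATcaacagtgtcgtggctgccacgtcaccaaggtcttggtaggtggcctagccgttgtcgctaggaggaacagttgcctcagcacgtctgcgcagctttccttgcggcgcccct
Malat1 (chr19:5802623-5802922): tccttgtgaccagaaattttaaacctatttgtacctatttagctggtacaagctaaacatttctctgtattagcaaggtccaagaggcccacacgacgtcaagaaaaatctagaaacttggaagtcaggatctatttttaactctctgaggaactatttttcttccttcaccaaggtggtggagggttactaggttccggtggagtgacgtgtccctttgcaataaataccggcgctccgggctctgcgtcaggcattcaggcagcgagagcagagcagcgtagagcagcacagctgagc
Kcnq1ot1 held CCAAT 3 times and ATTGG 0 times, while the window of Malat1 held neither. Of 32851 promoter windows of 300 bases, 37.4% held CCAAT or ATTGG at least once and 3.21% at least 3 times. Whether the motif bears on the counts of these RNAs was not tested.

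The proteins that work with these RNAs are described by counts, to be read beside the 6.84% of all tested genes that passed. Of 10 tested proteins of RNase P and RNase MRP (11 listed), 0 were higher, 1 was lower and 9 did not pass, with a median log2 fold change of -0.07. The one that fell was Rpp40, a protein subunit of RNase P. Rpp40 was at 2.67, 1.68, 2.06, 1.65 and 2.55 CPM in wild-type replicates 1 to 5 and at 0.721 to 1.28 CPM in the 6 Atg5-deficient libraries. Each Atg5-deficient library was below each wild-type one. The log2 fold change of Rpp40 was -1.09 (SE 0.27, adjusted p = 0.0292 by edgeR), at a level of few reads, and it passed in 5 of 11 fits with 1 library left out. Without wild-type replicates 2 and 3 it was -1.18 (adjusted p = 0.0534). Rpp30, another subunit, stood at 3.43 ± 0.606 CPM (SD, n = 6) against 5.16 ± 0.572 CPM (SD, n = 5), with an adjusted p of 0.0621 by edgeR.

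Of 20 tested genes of the RNA polymerase III machinery, which transcribes Rpph1 and Rmrp, 0 passed in either direction. Their median was -0.10, against -0.00273 over all tested genes, and 16 of 20 were below 0. The median over all genes was -0.0705 with upper-quartile factors and 0.0262 with total counts. Signs of the 20 genes were not counted under those scalings. Closest to the threshold were Polr3g, a subunit of the polymerase (-0.59, adjusted p = 0.0670 by edgeR), and Polr3b, a subunit of its catalytic core (-0.26, adjusted p = 0.0828). Among 8 nuclear speckle proteins, the company of Malat1, 0 passed (median -0.08), and the splicing factor Srsf7 had the smallest adjusted p (-0.27, adjusted p = 0.0761 by edgeR). Among 11 paraspeckle proteins, which Neat1 binds, 0 passed (median -0.06). There, Nono, a core protein of the paraspeckle, had a log2 fold change of 0.15 and Matr3 one of -0.15. Of 10 genes of the imprinted Kcnq1 domain, 6 were tested and 0 passed (median 0.06), with Osbpl5 at 0.39 (adjusted p = 0.111 by edgeR) and Cdkn1c, a cell cycle inhibitor that Kcnq1ot1 silences, at -0.80 (adjusted p = 0.308).

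Partners of the unmatched members were tested as well. Of 7 proteins of the 7SK particle and P-TEFb, the kinase that 7SK RNA holds inactive, 0 passed (median 0.01), with Mepce, the enzyme that caps that RNA, at -0.23 (adjusted p = 0.116 by edgeR). Of 9 proteins of the telomerase particle 0 passed (median -0.06), with Parn, an RNA-trimming nuclease, at -0.24 (adjusted p = 0.0887 by edgeR). Tert, the catalytic subunit, was at 6.76 ± 1.31 CPM (SD, n = 6) in Atg5-deficient and 6.78 ± 1.41 CPM (SD, n = 5) in wild-type libraries.

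Other noncoding RNAs give the setting. Of 16 further long noncoding RNAs listed, 12 were tested, 0 were higher, 3 were lower and 9 did not pass, with a median of -0.16. Of all tested genes, 2.41% were lower. The 3 that fell, Snhg12, Snhg1 and Gas5, host small nucleolar RNAs in their introns. Snhg12 was at 39.4 to 47.1 CPM in wild-type and at 25.8 to 36.2 CPM in Atg5-deficient libraries, with no overlap (log2 fold change -0.61, adjusted p = 0.00478 by edgeR), and without wild-type replicates 2 and 3 it was -0.53 (adjusted p = 0.0301). Snhg1 was at 80.9 to 113 CPM against 50.1 to 75.8 CPM, again with no overlap (-0.63, adjusted p = 0.0111), and without those libraries it was -0.47 (adjusted p = 0.0649). Gas5 was at 165 to 213 CPM against 111 to 155 CPM, also with no overlap (-0.39, adjusted p = 0.0349), and it passed in 3 of 11 fits with 1 library left out. It did not pass without wild-type replicates 2 and 3 (-0.30, adjusted p = 0.139) or with total-count scaling (-0.35, adjusted p = 0.0709). Of 8 tested small structured RNAs (17 listed), 0 passed, with a median of -0.54. In that list Scarna2 was at 77.2 to 153 CPM in wild-type and 41.0 to 86.5 CPM in Atg5-deficient libraries (-0.73, adjusted p = 0.0519 by edgeR). The groups overlapped, and wild-type replicates 2 and 3 were the highest libraries.

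The place of these RNAs in the libraries was read from shares of counts by annotation class. Protein-coding genes took 77.3% ± 2.50 (SD, n = 6) of counts in Atg5-deficient and 73.7% ± 5.48 (SD, n = 5) in wild-type libraries. Long noncoding RNAs, of which Malat1 made 48.2% to 62.1%, took 2.02% ± 0.387 against 2.37% ± 0.458. The genotypes overlapped in the share of that class (adjusted p = 0.386, exact permutation). They also overlapped without the members, at 0.850% ± 0.0846 against 0.889% ± 0.0929. For the whole class the overlap came from wild-type replicates 2 and 3, as 3 of 5 wild-type libraries were above every Atg5-deficient one. Without those replicates the difference was -0.610 percentage points in place of -0.347 (adjusted p = 0.107, exact permutation). Of 9 classes, 2 differed by an exact two-sided permutation test over 462 splits, adjusted over the classes. Small noncoding RNAs, among which Rpph1 and Rmrp are counted, took 0.493% ± 0.0562 in Atg5-deficient and 0.679% ± 0.153 in wild-type libraries (adjusted p = 0.0487, exact permutation). Pseudogenes took 0.435% ± 0.0264 against 0.566% ± 0.128 (adjusted p = 0.0390, exact permutation). The groups overlapped in both classes. In small noncoding RNAs, 3 of 6 Atg5-deficient libraries were below every wild-type one, and in pseudogenes 5 of 6. In each class, 4 of 5 wild-type libraries were above every Atg5-deficient one.

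Rpph1 took 12.9% to 38.8% of small noncoding counts, and without Rpph1 and Rmrp the class was at 0.287% to 0.370% of all counts in Atg5-deficient libraries. In wild-type replicates 1 to 5 that remainder was 0.349%, 0.595%, 0.736%, 0.357% and 0.370%. Wild-type replicates 2 and 3 were thus the high libraries. The other 3 stood within the Atg5-deficient range only through Atg5-deficient replicate 5 (0.370%). The other 5 Atg5-deficient libraries were below every wild-type one. Without wild-type replicates 2 and 3 the difference of the whole class was -0.0823 percentage points in place of -0.186. That of pseudogenes was -0.0556 in place of -0.131. With 6 against 3 libraries the smallest exact permutation p is 0.0119, which cannot pass after adjustment over 9 classes unless several classes reach it.

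The largest single share belonged to Gm37194, a predicted gene on chromosome 14 of the provisional GENCODE class TEC, with 8.0% ± 2.49 (SD, n = 6) in Atg5-deficient and 8.50% ± 3.03 (SD, n = 5) in wild-type libraries. Next were the mitochondrial ribosomal RNAs mt-Rnr2 (3.97% ± 0.697 against 3.91% ± 0.157) and mt-Rnr1 (2.58% ± 0.466 against 2.78% ± 0.168). Removing the members, ribosomal RNA and mitochondrially encoded genes from the library size left the fold change of Malat1 at -0.37 and that of Rmrp at -0.69. TMM scaling was kept in that fit and depends little on a few large rows, so little change could arise. Gm37194 was not among the genes removed.

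**Figure D5:**
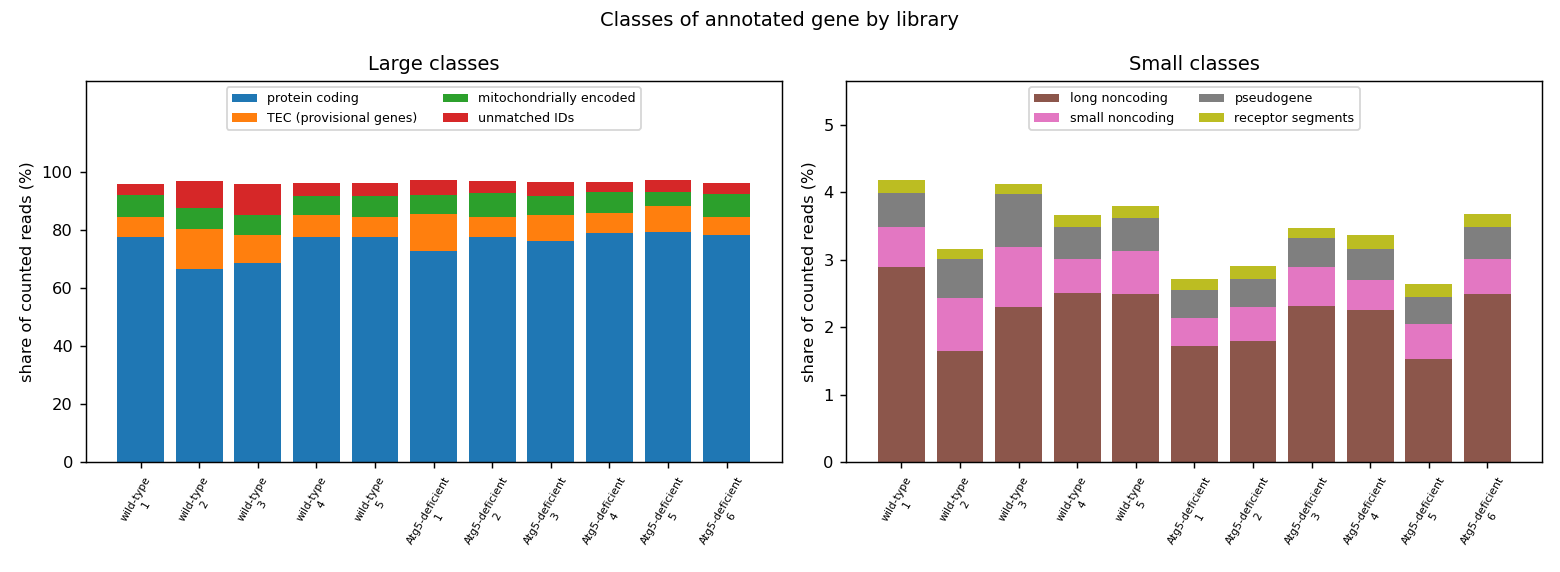
Share of counted reads (%) by annotation class, stacked by library, for the large classes (left) and the small ones (right, on its own scale), with both axes starting at 0. Wild-type replicates 2 and 3 have 9.08% and 10.7% of counts on unmatched IDs and 66.7% and 68.7% on protein-coding genes, against 72.8% to 79.5% in the other libraries.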

How the data were processed

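The deposited values are raw counts per Ensembl ID for 11 RNA-seq libraries (6 Atg5-deficient, 5 wild-type). Per the submitters' processing notes, the authors used STAR, featureCounts and the build GRCm38. The sources used here give no versions, annotation release or strand setting. Of 56748 IDs, 52125 (91.9%) matched GENCODE M21, the source of symbols, classes and coordinates, and held 89.3% to 96.5% of a library's reads. The table also has IDs that are not in M21.

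Low genes were removed with filterByExpr (at least 10 counts, total of at least 15). The rest were scaled by TMM and tested with edgeR's quasi-likelihood test (robust), with Benjamini-Hochberg adjustment over 17987 genes and a threshold of 0.05. Replicates are numbered in accession order. Differences between libraries of 1 group were 12.9 to 165 times counting noise (chi-square per degree of freedom), so none was counted as a duplicate. Wilson 95% intervals of shares, which cover counting error only, were narrow beside that spread (Malat1 1.79% to 1.80% in wild-type replicate 1). A count of 3 is 0.0631 to 0.0977 CPM. The common biological coefficient of variation was 0.341.

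Members and lists were chosen with earlier results of these data known. Named genes are the members, up to 4 genes per list with the smallest p or past the threshold, the 3 genes closest to each member, and overlapping or neighbouring genes; some are summarised by counts only, and 1 list is not reported here. The provisional GENCODE class TEC was added to 8 planned classes after the data were seen. On simulated counts over 17562 genes, 19.4%, 47.8% and 66.7% of genes changed 1.5-fold, 2-fold and 4-fold were recovered, with 9 false calls of 98. Software was edgeR 4.0.16, DESeq2 1.42.0 and limma 3.58.1 in R 4.3.3, and scipy 1.17.1 in Python 3.11.15. Alternatives were other scaling factors, library sizes and filters, DESeq2, limma-voom, the 8 libraries with consecutive title numbers, and leave-one-out fits. Leaving out wild-type replicates 2 and 3 together and a protein-coding library size were added after seeing the data.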

Additional observations from a re-analysis of the deposited data

How the results depend on the processing

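No paired analysis was possible because replicate numbers follow accession order and pair no libraries. The count of genes called (1231) was 2370 with DESeq2, 3426 with limma-voom, 176 among the 8 libraries with consecutive title numbers and 722 without wild-type replicates 2 and 3, and 642 to 2143 with 1 library left out. It was highest without Atg5-deficient replicate 3 and fell by over 1.5 times without Atg5-deficient replicates 1, 2 or 4 or wild-type replicates 1, 4 or 5. The split of higher and lower calls was 797 and 434 with TMM, 584 and 685 with upper-quartile factors, 963 and 320 with total counts and 629 and 593 with a protein-coding library size. With 1 library left out, log2 fold changes ran from -0.48 to -0.28 for Malat1, -0.12 to 0.0825 for Neat1, -0.92 to -0.50 for Rmrp, -0.29 to -0.06 for Rpph1 and -0.48 to -0.11 for Kcnq1ot1. Neat1 turned to 0.00542 with total counts, and Rpph1 to 0.0138 among the 8 libraries. Malat1 passed with limma-voom (-0.51). The cause of these changes was not tested.

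Without wild-type replicates 2 and 3 class differences (Atg5-deficient minus wild-type, percentage points) turned to -0.353 for protein-coding genes, 1.26 for TEC genes, 0.0401 for unmatched IDs and -0.00409 for receptor segments. Without those replicates the difference was -0.610 for long noncoding RNAs, -0.0823 for small noncoding RNAs and -0.0556 for pseudogenes. Among the 8 libraries those of small noncoding RNAs and pseudogenes were -0.237 and -0.185. The smallest exact permutation p there is 0.0179, and neither passed. With 1 library left out they ran from -0.229 to -0.135 and from -0.154 to -0.0769, and each passed in 1 of 11 fits, without wild-type replicate 4; 5 against 5 libraries allow no p under 0.00794. The same fits gave 1.87 to 4.62 for protein-coding genes, -1.44 to 0.636 for TEC genes, -0.462 to 0.238 for mitochondrially encoded genes, -2.91 to -1.17 for unmatched IDs, -0.528 to -0.217 for long noncoding RNAs, 0.00400 to 0.0153 for receptor segments and -1.37e-05 to 8.08e-07 for ribosomal RNA. Depth did not limit the members, the lowest of which had 1632 counts in a library.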
